A study of Homo sapiens with 12 samples.

Results

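The 37 genes encoded by human mitochondrial DNA were described in H69 cholangiocytes, an immortalised human bile duct epithelial line, given TGFβ, Aramchol or both. The members are all rows of the count table placed on the mitochondrial chromosome, 37 of 62703 gene rows, and comprise 13 protein genes, 2 rRNA genes and 22 tRNA genes. The 12 RNA sequencing libraries fell into 4 groups of 3: 10 ng/mL TGFβ plus 30 µM Aramchol, 10 ng/mL TGFβ, 30 µM Aramchol, and vehicle, whose solvent the labels do not name. Every group was starved of serum for 6 h and then held overnight in medium without serum, so no group represents cells in full growth medium. TGFβ is a cytokine that drives fibrosis, and Aramchol is a bile acid and fatty acid conjugate known as an inhibitor of stearoyl-CoA desaturase. The labels do not state that the libraries of a group came from separate cultures, so a p-value here measures variation among the libraries sequenced, and that variation may be technical only.

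Mitochondrial DNA is a circle transcribed from both strands into long precursors. In these, tRNAs sit between most of the other genes and are cut out to release them, after which most messengers gain a poly(A) tail. The protein genes encode core subunits of respiratory chain complexes I, III and IV and of the ATP synthase, complex V, while all other subunits, the RNA polymerase and the processing enzymes come from nuclear genes. Levels of the separate mitochondrial RNAs can therefore differ through processing and decay even where they share a precursor.

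The library totals lay between 52279922 and 70339925 counts, and all 37 members passed the filter on low counts that left 21567 genes for testing. Of the labelled cell type's markers, KRT7 had 274.7 to 999.9 CPM (counts scaled to the library total) and KRT19 14.8 to 33.4 CPM after TMM scaling, while CFTR did not exceed 0.0494 CPM. The summed level of 5 fibroblast markers, led by COL1A1, was 3270 to 4633 CPM with TGFβ + Aramchol, 4547 to 6088 CPM with TGFβ, 1064 to 1298 CPM with Aramchol and 1015 to 1220 CPM with vehicle. All 5 were detected. The summed level of the 8 cholangiocyte markers was 1163 to 1309 CPM with TGFβ + Aramchol, 1328 to 1468 CPM with TGFβ, 718.2 to 886.8 CPM with Aramchol and 578.8 to 1057 CPM with vehicle. KRT7 and SLC4A2 made up nearly all of that sum. Of the 7 tested markers, KRT7, SLC4A2 and AQP1 rose with TGFβ by edgeR while KRT19, EPCAM, SOX9 and GGT1 fell, with a median log2 fold change of -0.65. Of 4 leukocyte markers CD3E was at 0, and of 5 hepatocyte markers TTR was at 0. The summed level of the 4 leukocyte markers was 5.29 to 7.12 CPM with TGFβ + Aramchol, 5.30 to 6.01 CPM with TGFβ, 28.09 to 28.98 CPM with Aramchol and 28.02 to 34.5 CPM with vehicle, nearly all of it CD14. The 5 hepatocyte markers summed to 82.2 to 92.4 CPM with TGFβ + Aramchol, 96.6 to 106.5 CPM with TGFβ, 68.1 to 76.3 CPM with Aramchol and 62.8 to 79.6 CPM with vehicle, nearly all of it SERPINA1. The 4 endothelial markers summed to 8.06 to 10.6 CPM with TGFβ + Aramchol, 6.89 to 9.56 CPM with TGFβ, 13.7 to 14.99 CPM with Aramchol and 8.47 to 13.3 CPM with vehicle. The part of these shifts in the mitochondrial results was not tested. In each group the library numbered 3 stood apart in the same members: MT-CYB and MT-ND5 took their highest share of mitochondrial counts there in all 4 groups, and MT-ND1 and MT-ND2 their lowest.

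The 37 genes overlap each other at 5 places, and 9 of them, MT-ND6 and 8 tRNA genes, lie on the minus strand of the reference. The files' coordinates equal those of GENCODE release 29 on GRCh38 for all 37. MT-ATP8 and MT-ATP6, both subunits of ATP synthase made from 1 shared messenger, have 46 bases in common, MT-ND4L and MT-ND4 have 7, and MT-TI and MT-TQ, on opposite strands, have 3. The sources used here do not say whether the authors counted by strand, and reads from overlapping genes, or from the strand opposite a gene, may have been assigned to either or to neither. The MT-ATP8 gene, at MT:8366-8572 on the plus strand, is printed to show the stretch whose reads cannot be told apart from those of MT-ATP6, in capitals.
MT-ATP8: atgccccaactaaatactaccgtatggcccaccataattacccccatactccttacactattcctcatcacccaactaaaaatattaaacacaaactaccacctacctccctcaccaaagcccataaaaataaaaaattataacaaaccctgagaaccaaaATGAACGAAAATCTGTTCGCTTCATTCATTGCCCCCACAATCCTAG

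The tRNA genes that the results below turn on are printed with the anticodon in capitals, 5′ to 3′ on the gene's own strand, from GENCODE release 29 transcripts on GRCh38. MT-TP (proline, MT:15956-16023, minus strand) is the member called higher with TGFβ both in level and in share of mitochondrial counts. MT-TQ (glutamine, MT:4329-4400, minus strand), MT-TI (isoleucine, MT:4263-4331, plus strand) and MT-TS2 (serine, MT:12207-12265, plus strand) took a larger share of mitochondrial counts with Aramchol.
MT-TP: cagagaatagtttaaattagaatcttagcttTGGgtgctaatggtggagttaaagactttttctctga
MT-TQ: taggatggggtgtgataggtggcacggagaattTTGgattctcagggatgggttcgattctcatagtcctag
MT-TI: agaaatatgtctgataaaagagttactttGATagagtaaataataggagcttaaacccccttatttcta
MT-TS2: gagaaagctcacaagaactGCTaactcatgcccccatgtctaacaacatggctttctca

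Mitochondrially encoded RNA took a smaller share of all counts with Aramchol than without it, by 0.613 percentage points. The share was 8.53%, 7.86% and 7.81% in the TGFβ + Aramchol libraries and 8.82%, 8.56% and 8.26% in the TGFβ libraries. It was 8.73%, 8.13% and 8.21% in the Aramchol libraries and 9.21%, 9.45% and 8.63% in the vehicle libraries. The groups overlap in each of the 4 pairs that differ in 1 agent, and the 2 highest shares belong to vehicle libraries. The TGFβ + Aramchol libraries, at most 8.53%, all lay below the vehicle libraries, at least 8.63%, a pair that was not tested. A share of all counts also depends on the amount of nuclear RNA. In these bulk libraries fewer cells rich in mitochondria, less mitochondrial RNA per cell and more nuclear RNA per cell cannot be told apart. Wilson 95% intervals, which cover counting error only, reached 0.00627 to 0.00765 points to either side, less than the spread between libraries. The 6 libraries with Aramchol averaged 8.21 ± 0.365% and the 6 without it 8.82 ± 0.438% (SD), and a 2-sided exact permutation test within each TGFβ state gave p = 0.025, where 0.005 is the smallest of its 400 assignments. With TGFβ the mean was 8.31 ± 0.41% in 6 libraries, against 8.72 ± 0.527% in the 6 without it, a difference of -0.418 points with an exact permutation p = 0.075. Tests of 1 group against another can go no lower than p = 0.10 with 3 libraries each, and all 4 gave an exact permutation p of 0.2 or more. The p-values for this share were not adjusted for the number of tests.

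After TMM scaling, which sets libraries on the level of most genes in place of the total, the mitochondrial sum with Aramchol was again the lower. It averaged 81613 ± 4316 CPM in the 6 libraries with Aramchol and 88904 ± 5231 CPM in the 6 without, a difference of -7292 CPM with an exact permutation p = 0.025. No p-value for this sum was adjusted for the number of tests. For TGFβ the direction turned with the scaling. The TMM-scaled sum averaged 87687 ± 5459 CPM in the 6 libraries with TGFβ and 82830 ± 5825 CPM in the 6 without, a difference of +4858 CPM with an exact permutation p = 0.075, while the share of counts was the lower with TGFβ. Scaling by totals in place of TMM moved the median log2 fold change of all tested genes by -0.15 for the mean effect of TGFβ and by 0.02 for that of Aramchol. The levels below are therefore given on the TMM scale, and for TGFβ the value under totals is given where the direction or the call differed. Of all tested genes 4975 rose and 5018 fell with TGFβ on the TMM scale, against 3070 and 8784 with scaling by totals. With Aramchol 622 rose and 664 fell, against 819 and 581 with totals.

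**Figure D1:**
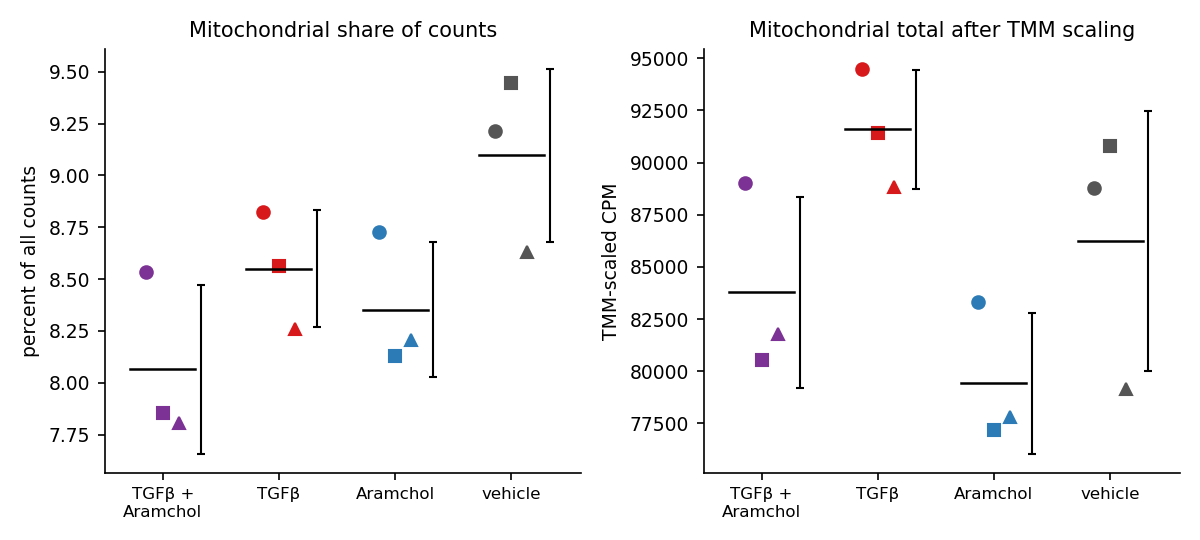
Share of all counts in the 37 mitochondrial genes (left, percent) and their TMM-scaled sum (right, CPM) in each library; circles, squares and triangles are replicates 1, 2 and 3, the line is the group mean and the bar 1 SD (n = 3). Both axes start above 0. Groups that differ in 1 agent overlap in both plots. The 3 TGFβ libraries lie below the 2 highest vehicle libraries on the left and between 88830 and 94505 CPM on the right. On the left TGFβ + Aramchol (at most 8.53%) lies below vehicle (at least 8.63%). On the right TGFβ lies above Aramchol (at most 83316 CPM).

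Within the mitochondrial counts, protein genes took 87.7% to 90.3% of each library, rRNA genes 9.49% to 12.04% and tRNA genes 0.233% to 0.283%. Per kilobase of gene, the order of TMM-scaled levels over the 12 libraries was led by the complex IV subunits MT-CO2 at 16656 and MT-CO3 at 12290 CPM per kb. These were followed by MT-ATP6 of complex V at 9923, MT-CO1, the catalytic subunit of complex IV, at 9218, and MT-ND4 of complex I at 8847 CPM per kb. Between 7251 and 3473 CPM per kb came MT-ATP8, MT-ND4L, MT-CYB, MT-ND2 and MT-ND1, in that order. The lowest protein genes were the complex I subunits MT-ND6, MT-ND3 and MT-ND5, at 2245, 2165 and 2159 CPM per kb, whose ranges over libraries overlap. MT-ND6 is the only protein gene on the minus strand. The 16S rRNA gene MT-RNR2 stood at 5141 and the 12S rRNA gene MT-RNR1 at 896 CPM per kb. Among tRNA genes MT-TC was the highest at 1509 CPM per kb, above MT-TP at 466 and MT-TY at 458, followed by MT-TN at 248 and MT-TL1 at 199 CPM per kb. The first 4 of these, and 4 of the scarcer ones (MT-TQ, MT-TE, MT-TS1 and MT-TA), lie on the minus strand. The other 17 tRNA genes stood between 56.7 CPM per kb for MT-TH and 1.55 CPM per kb for MT-TF: MT-TS2, MT-TG, MT-TE, MT-TR, MT-TL2, MT-TV, MT-TQ, MT-TM, MT-TI, MT-TK, MT-TD, MT-TS1, MT-TW, MT-TA and MT-TT in between. MT-TF had 9, 16 and 0 counts with TGFβ + Aramchol, 3, 3 and 1 with TGFβ, 11, 14 and 6 with Aramchol, and 10, 4 and 7 with vehicle, and did not pass in any comparison. Reads assigned to a tRNA gene may come from the mature tRNA or from precursors, which these counts do not separate.

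Among the 15 protein and rRNA genes, 6 pairs changed places in that order between groups. MT-CO1 stood below MT-ATP6 in both groups with Aramchol, at 8585 ± 422 against 10195 ± 731 CPM per kb with TGFβ + Aramchol and at 8054 ± 246 against 9484 ± 565 CPM per kb with Aramchol (SD, n = 3 each), with no overlap in either group. Without Aramchol the libraries of the pair overlapped, with MT-CO1 at 10516 ± 323 and MT-ATP6 at 10386 ± 376 CPM per kb with TGFβ, and MT-CO1 at 9718 ± 776 and MT-ATP6 at 9625 ± 660 CPM per kb with vehicle. MT-CO1 also stood below MT-ND4 in both groups with Aramchol, with overlap, and above it in both without, where the TGFβ libraries did not overlap. MT-ND4 had 8693 ± 613 CPM per kb with TGFβ + Aramchol, 9441 ± 585 with TGFβ, 8415 ± 550 with Aramchol and 8839 ± 622 CPM per kb with vehicle (SD, n = 3 each). MT-RNR2 stood above MT-ND4L with vehicle and below MT-CYB with TGFβ + Aramchol, with overlap in both cases. MT-ND3 stood above MT-ND6 with TGFβ + Aramchol, with overlap, and below MT-ND5 with TGFβ, without overlap.

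MT-CO1 and MT-CO3 of complex IV, and MT-RNR2, fell with Aramchol, and MT-TQ rose. These were the 4 members of 37 that passed edgeR's quasi-likelihood test at an adjusted p under 0.05, adjusted over all 21567 genes, for the mean effect of Aramchol, the average of its effect with and without TGFβ. Of all genes tested, 5.96% passed. The median log2 fold change of the 37 members was 0.03 and that of all genes -0.0044. Among the 13 protein genes 10 had log2 fold changes under 0, with a median of -0.06.

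MT-CO1, the subunit that holds the oxygen-reducing centre of cytochrome c oxidase, had 13863, 12566 and 13284 CPM with TGFβ + Aramchol, 16767, 16080 and 15799 CPM with TGFβ, 12828, 12076 and 12354 CPM with Aramchol, and 15655, 15698 and 13604 CPM with vehicle. All libraries with Aramchol lay below their own counterparts without it at the same TGFβ state, although over all 12 the third vehicle library fell inside the range of the TGFβ + Aramchol libraries. The log2 fold change for the mean effect of Aramchol was -0.28 ± 0.04 (SE), with an edgeR adjusted p of 0.00357. MT-CO3, another core subunit of the same enzyme, had 10104, 8889 and 8951 CPM with TGFβ + Aramchol, 10608, 10902 and 10504 CPM with TGFβ, 8836, 8316 and 8479 CPM with Aramchol, and 10591, 10293 and 9149 CPM with vehicle. It was lower in both groups with Aramchol than in the group at the same TGFβ state, with no overlap in either pair, and its log2 fold change was -0.21 ± 0.05 (SE, edgeR adjusted p = 0.0164; 0.0524 without Aramchol replicate 2). The third core subunit, MT-CO2, did not pass, with a log2 fold change of -0.08 and an edgeR adjusted p of 0.329.

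MT-RNR2, the large rRNA of the mitochondrial ribosome, had 7755, 7559 and 7001 CPM with TGFβ + Aramchol, 8940, 8655 and 8106 CPM with TGFβ, 7872, 7395 and 7046 CPM with Aramchol, and 8530, 9500 and 7826 CPM with vehicle. The Aramchol and vehicle libraries overlapped slightly. The log2 fold change was -0.21 ± 0.05 (SE, edgeR adjusted p = 0.0279). The call was lost without TGFβ + Aramchol replicate 3, TGFβ replicates 1 or 2, Aramchol replicates 2 or 3, or vehicle replicate 2, at adjusted p up to 0.0728. MT-RNR1, the small rRNA, did not pass, at -0.11 (edgeR adjusted p = 0.678). It had 890.2, 850.0 and 764.1 CPM with TGFβ + Aramchol, 780.9, 851.6 and 739.9 CPM with TGFβ, 846.9, 843.5 and 717.6 CPM with Aramchol, and 898.5, 1426 and 644.5 CPM with vehicle, so that vehicle replicate 2 stood above all others. The ratio of MT-RNR2 to MT-RNR1 counts averaged 9.11 ± 0.416 in the 6 libraries with Aramchol and 10.1 ± 1.94 in the 6 without, with an exact permutation p = 0.26. Without vehicle replicate 2 the difference in that ratio was -1.73 in place of -1.04, with an exact permutation p = 0.01.

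MT-TQ had 1.94, 2.14 and 1.16 CPM with TGFβ + Aramchol, 0.839, 0.879 and 0.945 CPM with TGFβ, 1.35, 1.52 and 1.2 CPM with Aramchol, and 1.01, 1.28 and 0.748 CPM with vehicle, from 50 to 129 counts a library. The highest values were those of the first 2 TGFβ + Aramchol libraries, and the Aramchol and vehicle ranges overlapped. The log2 fold change was 0.70 ± 0.17 (SE, edgeR adjusted p = 0.0266). Leaving out 1 library ended the call in 8 of 12 cases, at adjusted p up to 0.0776: TGFβ + Aramchol replicates 1 and 2, TGFβ replicates 1, 2 and 3, Aramchol replicates 1 and 2, and vehicle replicate 1.

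The 2 comparisons behind that mean share no library. In TGFβ-treated cells, Aramchol against none changed MT-CO1, by -0.29 ± 0.06 (edgeR adjusted p = 0.0284), and MT-TQ, by 0.97 ± 0.24 (SE, edgeR adjusted p = 0.0489), 2 of 37 members where 2.25% of all genes passed. The MT-CO1 call was lost without TGFβ + Aramchol replicates 1 or 2 or any 1 TGFβ replicate, at adjusted p up to 0.107. The MT-TQ call was lost under RLE scaling, without those same libraries, and without any 1 Aramchol replicate or vehicle replicate 1, at adjusted p up to 0.207. Without TGFβ, Aramchol against vehicle changed 0 of 37 members by edgeR, where 0.357% of all genes passed. At an unadjusted p under 0.05 were 4 members, and 2533 of all 21567 genes. DESeq2 called 1 member, and its share over all genes is not given here. MT-CO1 had the smallest adjusted p there, with a log2 fold change of -0.27 ± 0.06 (SE, edgeR adjusted p = 0.0970). The interaction, the test of whether the effect of Aramchol differed with TGFβ, called 0 of 37 members by edgeR, where 0.0139% of all genes passed. It had 0 members at an unadjusted p under 0.05, against 1137 of all 21567 genes, and 0 members called by DESeq2. The interaction of MT-CO1 was -0.02 ± 0.09 (SE) on the log2 scale.

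**Figure D2:**
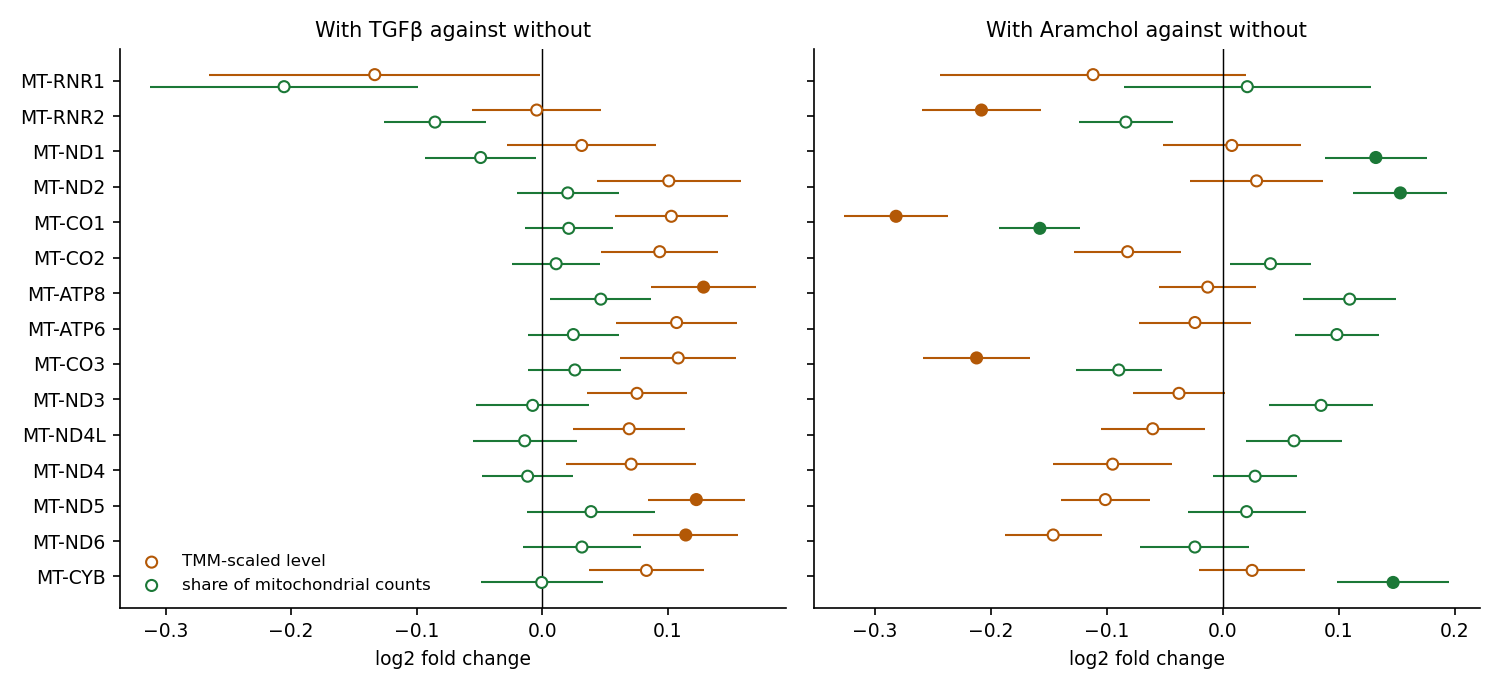
Log2 fold changes of the 13 protein and 2 rRNA genes, in gene order along the chromosome, for TGFβ (left) and Aramchol (right), each the mean over both states of the other agent; bars are 1 SE and filled points passed edgeR's test at an adjusted p under 0.05. On the TMM-scaled level MT-CO1, MT-CO3 and MT-RNR2 lie left of 0 with Aramchol, and as shares of mitochondrial counts MT-CO1 lies left while MT-ND1, MT-ND2 and MT-CYB lie right.

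As shares of the mitochondrial counts, which do not depend on how the libraries are scaled to nuclear genes, the balance between complexes differed with Aramchol. The complex IV genes together took 40.2 ± 0.5% of mitochondrial counts in the 6 libraries with Aramchol and 42.4 ± 0.508% in the 6 without (SD). Complex I genes, which encode subunits of NADH dehydrogenase, took 32.8 ± 0.46% with Aramchol and 31.5 ± 0.343% without, and complex V genes 10.0 ± 0.197% with Aramchol and 9.36 ± 0.147% without. In these 3 complexes no library with Aramchol overlapped any without it. The differences of -2.14, 1.36 and 0.675 percentage points each had an exact permutation p = 0.005, the smallest the design allows, and a Benjamini-Hochberg adjusted p of 0.0333 over the 20 tests of classes, complexes and ratios. Complex III, here MT-CYB alone, took 6.53 ± 0.406% with Aramchol and 5.89 ± 0.29% without, with an exact permutation p = 0.015 and an adjusted p of 0.075. Shares of 1 total are tied to each other: a lower share of 1 complex raises those of others.

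**Figure D3:**
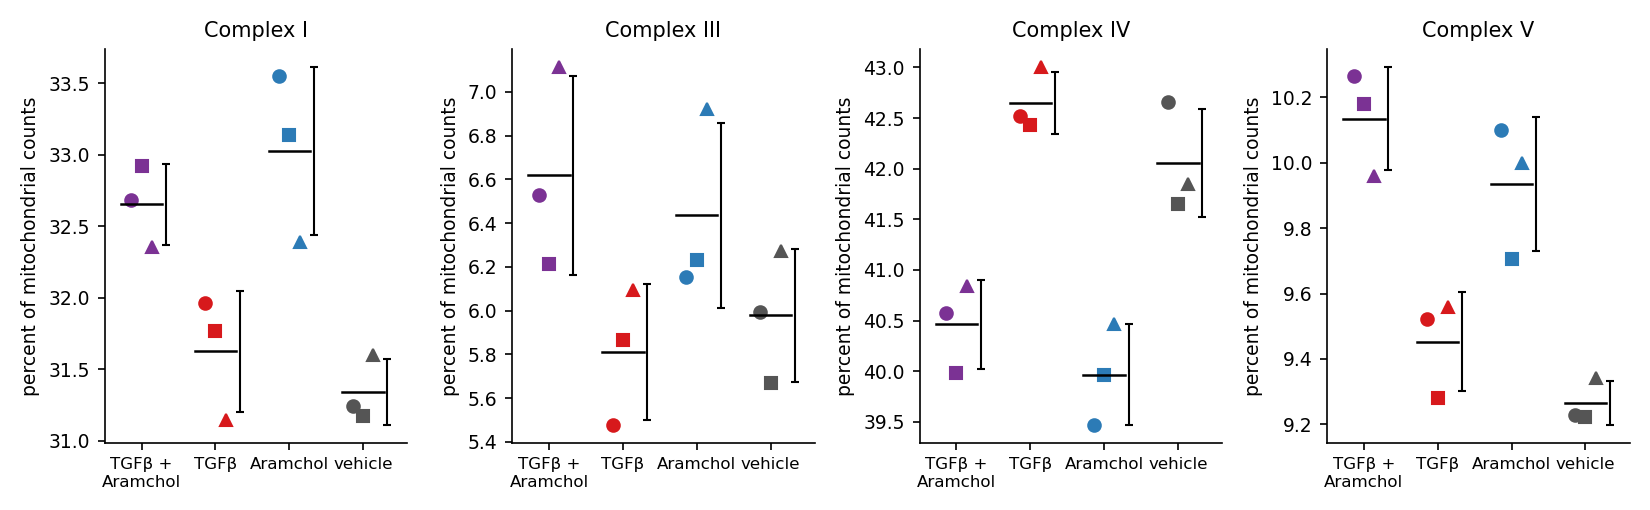
Share of mitochondrial counts in the genes of complexes I, III, IV and V, in percent, for each library; circles, squares and triangles are replicates 1, 2 and 3, lines are group means and bars 1 SD (n = 3), and the axes start above 0. Complex IV lies between 39.5% and 40.8% in libraries with Aramchol and between 41.7% and 43.0% in those without.

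Gene by gene, 7 of 37 members differed in share with Aramchol, 6 higher and 1 lower, by edgeR with the mitochondrial total as library size and p-values adjusted over all genes. On that scale 17.2% of all genes passed and the median log2 fold change of all genes was 0.12, since nuclear genes are then read against the mitochondrial total, and the count of members is near that background. The lower member was MT-CO1. It took 15.6%, 15.6% and 16.2% of mitochondrial counts with TGFβ + Aramchol, 17.7%, 17.6% and 17.8% with TGFβ, 15.4%, 15.6% and 15.9% with Aramchol, and 17.6%, 17.3% and 17.2% with vehicle. Every library with Aramchol was below every library without it, with a log2 fold change of -0.16 ± 0.04 (SE, edgeR adjusted p = 0.00768). Of the other complex IV genes, MT-CO3 had -0.09 (edgeR adjusted p = 0.0984) and MT-CO2 0.04 (edgeR adjusted p = 0.445).

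The higher protein genes were MT-ND2 and MT-ND1 of complex I and MT-CYB, the cytochrome b of complex III. MT-ND2 took 5.52%, 5.61% and 5.31% with TGFβ + Aramchol, 5.09%, 4.98% and 4.86% with TGFβ, 5.70%, 5.46% and 5.21% with Aramchol, and 4.96%, 4.96% and 4.66% with vehicle. No library with Aramchol overlapped one without it, and the log2 fold change was 0.15 ± 0.04 (SE, edgeR adjusted p = 0.0183; 0.0567 without TGFβ + Aramchol replicate 2). MT-CYB, at 0.15 ± 0.05 (SE, edgeR adjusted p = 0.0452), and MT-ND1, at 0.13 ± 0.04 (SE, edgeR adjusted p = 0.0469), overlapped slightly between libraries with and without Aramchol. MT-CYB took 6.53%, 6.21% and 7.11% with TGFβ + Aramchol, 5.48%, 5.87% and 6.09% with TGFβ, 6.15%, 6.23% and 6.92% with Aramchol, and 5.99%, 5.67% and 6.27% with vehicle. MT-ND1 took 4.08%, 4.12% and 3.86% with TGFβ + Aramchol, 3.61%, 3.82% and 3.52% with TGFβ, 4.26%, 4.29% and 3.87% with Aramchol, and 3.89%, 3.88% and 3.61% with vehicle. The MT-CYB call held without TGFβ + Aramchol replicate 1, TGFβ replicate 3, Aramchol replicate 1 or vehicle replicate 3 and was lost without each of the other libraries, at adjusted p up to 0.126. The MT-ND1 call held without TGFβ + Aramchol replicate 3 or Aramchol replicate 3 and was lost without each of the others, at adjusted p up to 0.125. With the 13 protein genes as library size both calls were lost too, at edgeR adjusted p = 0.0518 for MT-CYB and 0.0673 for MT-ND1. MT-ATP6 of complex V took 7.96% to 8.44% with Aramchol and 7.56% to 7.80% without, with no overlap, but did not pass, at 0.10 ± 0.04 (SE, edgeR adjusted p = 0.0669). Over all 12 libraries the members without overlap in share between libraries with and without Aramchol were MT-CO1, MT-ND2, MT-ATP6 and MT-TQ. How many of all tested genes had no overlap on this scale was not counted, so their number is not read as a result.

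**Figure D4:**
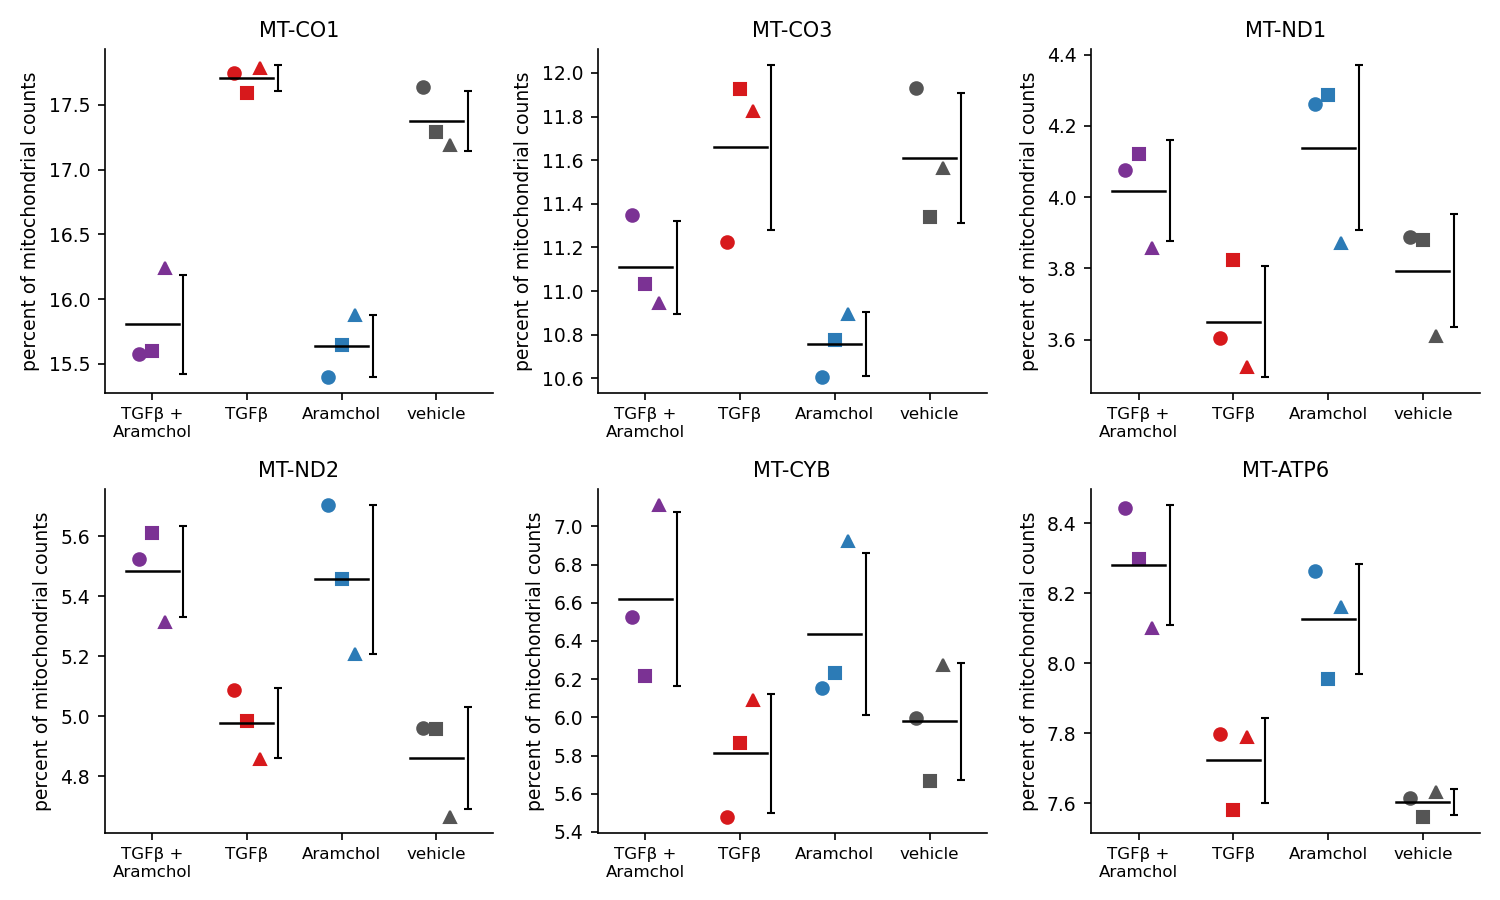
Share of mitochondrial counts, in percent, of 6 protein genes in each library; circles, squares and triangles are replicates 1, 2 and 3, lines are group means and bars 1 SD (n = 3), and the axes start above 0. MT-CO1 lies at 15.4% to 16.2% with Aramchol and 17.2% to 17.8% without, MT-ND2 at 5.21% to 5.70% and 4.66% to 5.09%.

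The other 3 higher members were tRNA genes with few counts. MT-TQ had a log2 fold change in share of 0.83 ± 0.17 (SE, edgeR adjusted p = 0.00454) and no overlap, but only narrowly. Its lowest library with Aramchol, TGFβ + Aramchol replicate 3, and its highest without, vehicle replicate 2, both had 78 counts. Their shares of 0.001421% and 0.001415% differ only through the mitochondrial totals. MT-TS2, from 77 to 244 counts a library, had 0.67 ± 0.19 (SE, edgeR adjusted p = 0.0264), and MT-TI, from 36 to 86 counts, had 0.54 ± 0.18 (SE, edgeR adjusted p = 0.0444), both with overlap. MT-TS2 had 217, 159 and 107 counts with TGFβ + Aramchol, 77, 145 and 90 with TGFβ, 92, 244 and 150 with Aramchol, and 107, 116 and 99 with vehicle. MT-TI had 72, 86 and 50 counts with TGFβ + Aramchol, 50, 62 and 50 with TGFβ, 64, 68 and 66 with Aramchol, and 42, 56 and 36 with vehicle. The MT-TS2 call was lost without TGFβ + Aramchol replicates 1 or 2, TGFβ replicate 1, Aramchol replicate 2 or vehicle replicates 1 or 2, at adjusted p up to 0.104. The MT-TI call held without TGFβ + Aramchol replicates 1 or 3 or vehicle replicate 2 and was lost without each of the others, at adjusted p up to 0.142, and with the 13 protein genes as library size (adjusted p = 0.0528). The 22 tRNA genes together took 0.257 ± 0.0178% of mitochondrial counts with Aramchol and 0.245 ± 0.00865% without, with an exact permutation p = 0.195. The 9 minus-strand genes together took 1.59 ± 0.0673% with Aramchol and 1.61 ± 0.0711% without, with an exact permutation p = 0.66. Across the 13 protein genes, which are not independent of each other, the change in share with Aramchol had a Pearson r of -0.27 with GC content, -0.29 with gene length and -0.07 with position along the chromosome. The share interaction called 0 of 37 members by edgeR, where 0% of all genes passed. It had 0 members at an unadjusted p under 0.05, against 822 of all 21567 genes.

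With TGFβ the member that rose under every scaling was MT-TP, the tRNA for proline. It had 34.9, 33.4 and 33.9 CPM with TGFβ + Aramchol, 38.1, 40.7 and 37.1 CPM with TGFβ, 28.2, 28.3 and 24.7 CPM with Aramchol, and 28.4, 29.4 and 23.0 CPM with vehicle, from 1543 to 2595 counts a library. Every library with TGFβ lay above every library without it. The log2 fold change for the mean effect of TGFβ was 0.43 ± 0.06 (SE, edgeR adjusted p = 2.08e-05), and as a share of mitochondrial counts 0.35 ± 0.06 (SE, edgeR adjusted p = 8.33e-05). It was 1 of 37 members called in share, where 43.8% of all genes passed.

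**Figure D5:**
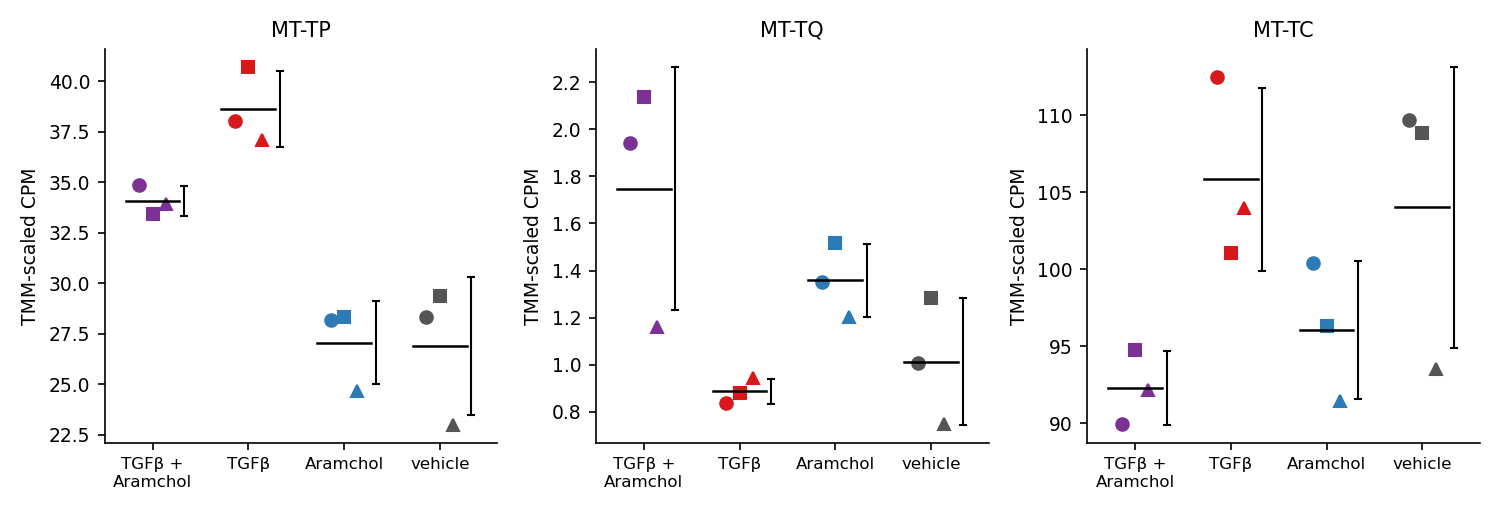
TMM-scaled level, in CPM, of the tRNA genes MT-TP, MT-TQ and MT-TC in each library; circles, squares and triangles are replicates 1, 2 and 3, lines are group means and bars 1 SD (n = 3), and the axes start above 0. MT-TP lies at 33.4 to 40.7 CPM with TGFβ and 23.0 to 29.4 CPM without it.

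On the TMM-scaled level 4 of 37 members rose with TGFβ in the mean over both Aramchol states and 0 fell, where 46.3% of all genes passed. Beside MT-TP these were MT-ND5 at 0.12 ± 0.04 (SE, edgeR adjusted p = 0.0159), MT-ATP8 at 0.13 ± 0.04 (SE, edgeR adjusted p = 0.0188) and MT-ND6 at 0.11 ± 0.04 (SE, edgeR adjusted p = 0.0351). With scaling by totals these 3 had -0.03, -0.02 and -0.04, so their direction rests on the scaling, and the 3 calls were also lost without Aramchol replicate 2. MT-ATP8 had 1620, 1515 and 1518 CPM with TGFβ + Aramchol, 1631, 1552 and 1570 CPM with TGFβ, 1530, 1350 and 1429 CPM with Aramchol, and 1433, 1510 and 1353 CPM with vehicle and its TGFβ + Aramchol and Aramchol libraries overlapped. The MT-ND6 call was lost as well without TGFβ + Aramchol replicates 1 or 3, TGFβ replicates 1 or 2, Aramchol replicate 3 or vehicle replicate 1. All 13 protein genes had log2 fold changes above 0 on the TMM scale, with a median of 0.10 where the median of all genes was -0.02, and all 13 had values below 0 with scaling by totals. None of the 3 had a share of mitochondrial counts that passed.

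TGFβ against vehicle called 3 of 37 members, all higher, where 37% of all genes passed: MT-TP at 0.52 ± 0.08 (SE, edgeR adjusted p = 0.000134), MT-ND5 at 0.16 ± 0.05 (SE, edgeR adjusted p = 0.0307) and MT-ND6 at 0.17 ± 0.06 (SE, edgeR adjusted p = 0.0310). MT-ND5 had 3871, 3663 and 4119 CPM with TGFβ + Aramchol, 4287, 4242 and 4299 CPM with TGFβ, 3676, 3529 and 3777 CPM with Aramchol, and 3677, 3921 and 3882 CPM with vehicle. MT-ND6 had 1143, 1079 and 1197 CPM with TGFβ + Aramchol, 1373, 1303 and 1266 CPM with TGFβ, 1171, 1051 and 1068 CPM with Aramchol, and 1127, 1217 and 1151 CPM with vehicle. TGFβ and vehicle libraries did not overlap in either gene, and the TGFβ + Aramchol and Aramchol libraries overlapped in both. With scaling by totals the log2 fold changes of MT-ND5 and MT-ND6 were -0.02 and -0.0048. Leaving out TGFβ replicates 1 or 2 or vehicle replicate 1 ended both calls, as did TGFβ replicate 3 for MT-ND5 and vehicle replicate 3 for MT-ND6. TGFβ + Aramchol against Aramchol called MT-TP alone, 1 of 37 members where 30.2% of all genes passed, at 0.33 ± 0.08 (SE, edgeR adjusted p = 0.0066; 0.0504 with scaling by totals). MT-TC, the highest tRNA gene, had 90.0, 94.8 and 92.2 CPM with TGFβ + Aramchol, 112.5, 101.0 and 104.0 CPM with TGFβ, 100.4, 96.3 and 91.5 CPM with Aramchol, and 109.7, 108.8 and 93.5 CPM with vehicle, and passed in no comparison. MT-ND3, the protein gene with the lowest CPM, had 822.0, 760.5 and 725.4 CPM with TGFβ + Aramchol, 748.4, 791.3 and 764.4 CPM with TGFβ, 710.3, 693.8 and 725.9 CPM with Aramchol, and 770.5, 769.9 and 707.9 CPM with vehicle, and passed in none either. With scaling by totals both were called lower in TGFβ against vehicle, at -0.15 and -0.14 (edgeR adjusted p = 0.0487 and 0.0344). The interaction of MT-TP was -0.19 ± 0.12 (SE) on the log2 scale, with an edgeR adjusted p of 0.983.

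As classes, protein genes took 89.7 ± 0.398% of mitochondrial counts in the 6 libraries with TGFβ and 89.0 ± 0.684% in the 6 without, and rRNA genes 10.0 ± 0.39% with TGFβ and 10.7 ± 0.686% without. Each had an exact permutation p = 0.03 and an adjusted p of 0.1 over the 20 tests. Complex V genes took 9.79 ± 0.397% with TGFβ and 9.60 ± 0.391% without, with an exact permutation p = 0.045 and an adjusted p of 0.129. None of these passed after adjustment. Complex IV genes took 41.6 ± 1.24% with TGFβ and 41.0 ± 1.23% without, with an exact permutation p = 0.07.

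Nuclear genes that make, process and partner the mitochondrial RNAs were counted in 10 lists of 229 genes, of which 227 were tested. In the mean effect of TGFβ 56 rose and 25 fell on the TMM scale, while with scaling by totals 11 rose and 114 fell, so that which direction prevails rests on the scaling. In the mean effect of Aramchol 4 rose and 2 fell, against 6 and 0 with totals. On the TMM scale the background was the same 46.3% and 5.96% of all genes. With totals 3070 of all 21567 genes rose and 8784 fell with TGFβ, and 819 rose and 581 fell with Aramchol. Counts for each list below are on the TMM scale. Of the 15 genes of mitochondrial DNA transcription and replication 6 rose and 4 fell with TGFβ, against 2 and 6 with totals. POLRMT, the mitochondrial RNA polymerase, rose by 0.21 ± 0.05 (SE, edgeR adjusted p = 0.00107), a call lost with totals, at 0.06 (adjusted p = 0.234). TFB2M, its initiation factor, rose by 0.38 ± 0.06 (SE, edgeR adjusted p = 8.49e-05). SSBP1, which binds single-stranded mitochondrial DNA, rose by 0.28 ± 0.05 and MGME1, an exonuclease of mitochondrial DNA, had -0.20 ± 0.03 (SE; edgeR adjusted p = 0.000131 and 0.000122). TFAM, which packages mitochondrial DNA and activates its promoters, did not pass, at -0.10 ± 0.05 (SE, edgeR adjusted p = 0.107), but was called with totals, at -0.25 (adjusted p = 0.000668). Among 9 tested regulators of mitochondrial biogenesis, PPARGC1A, the coactivator PGC-1α, fell to 2.28 ± 0.269 CPM in the 6 libraries with TGFβ, against 7.59 ± 1.53 CPM in the 6 without (log2 fold change -1.73, edgeR adjusted p = 4.94e-09). Its relatives PPARGC1B and PPRC1 rose, by 0.57 and 0.42 on the log2 scale (edgeR adjusted p = 8.00e-06 and 9.79e-05).

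Of 33 genes of mitochondrial RNA processing, stability and modification, 10 rose and 3 fell with TGFβ, against 3 and 14 with totals, and 2 rose and 1 fell with Aramchol. With TGFβ these included REXO2, a mitochondrial oligoribonuclease, at 0.59 ± 0.04, PDE12, which removes poly(A) tails, at -0.41 ± 0.05, and TRMT10C, a subunit of the RNase P that cuts the 5′ ends of tRNAs, at 0.26 ± 0.04 (each with its SE; edgeR adjusted p = 4.17e-09, 4.84e-06 and 0.00012). With Aramchol they were NSUN4, a methyltransferase of the small rRNA, at 0.22 ± 0.04, PNPT1, the polynucleotide phosphorylase of mitochondrial RNA decay, at 0.26 ± 0.07, and PTCD2, needed in mouse for maturation of the cytochrome b messenger, at -0.16 ± 0.04 (each with its SE; edgeR adjusted p = 0.00649, 0.0413 and 0.0355); the PTCD2 call was lost with totals (adjusted p = 0.0654). LRPPRC, which binds and stabilises mitochondrial messengers, did not pass with either agent, at 0.02 for TGFβ and -0.05 for Aramchol, but with totals it was called lower with TGFβ, at -0.13 (edgeR adjusted p = 0.0027).

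In the mean effect of Aramchol edgeR called 5.96% of all genes. Of the nuclear partners in the complexes it called 0 of 37 in complex I, 0 of 4 in complex II, 0 of 9 in complex III, 0 of 11 in complex IV and 0 of 17 in complex V. DESeq2 called 0 in each too, and its share over all genes is not given here. At an unadjusted p under 0.05 edgeR had 5 in complex I, 2 in complex III, 1 in complex IV and 0 in the others. Of all 21567 genes 4721 were under that value. With TGFβ, 3 rose and 5 fell in complex I, 1 rose in complex II, 2 rose in complex III, 1 rose in complex IV and 3 rose and 2 fell in complex V. With scaling by totals 23 fell in complex I, 3 in complex II, 4 in complex III, 7 in complex IV and 8 in complex V, and 1 rose, UQCRC1 in complex III. The called genes with the smallest p were NDUFB9 at 0.20, NDUFA5 at -0.14 and NDUFS5 at 0.14 in complex I, SDHB at 0.15 in complex II, UQCRC1 at 0.28 and UQCRH at 0.14 in complex III, COX4I1 at 0.11 in complex IV, and ATP5PF at 0.14, ATP5F1E at 0.14 and ATP5MC2 at -0.14 in complex V. Their edgeR adjusted p lay between 0.000498 for UQCRC1 and 0.0395 for COX4I1. With totals UQCRH, COX4I1, ATP5PF, ATP5F1E and NDUFS5 turned to values between -0.0449 and -0.0093, and NDUFB9 at 0.05 and SDHB at 0.0014 lost their calls. Of 80 tested mitochondrial ribosomal protein genes 22 rose and 7 fell with TGFβ, against 3 and 39 with totals, with MRPL37 at 0.35, MRPL10 at -0.37 and MRPL14 at 0.30 (edgeR adjusted p = 1.09e-05, 1.15e-05 and 5.01e-05), and with Aramchol MRPS6 rose by 0.20 and MRPL30 had -0.17 (edgeR adjusted p = 0.0293 and 0.0365; 0.0738 for MRPL30 with totals). Of 12 chaperones and proteases 4 rose and 2 fell with TGFβ, against 0 and 6 with totals, with HTRA2 at 0.23, the chaperone HSPA9 at 0.14 and AFG3L2 at -0.10 (edgeR adjusted p = 0.00284, 0.00587 and 0.0196). With totals HTRA2 did not pass, at 0.07, and HSPA9 had -0.01. AFG3L2, a protease of the inner membrane, was the 1 of these called with Aramchol, where it rose by 0.12 (edgeR adjusted p = 0.045).

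Reads of mitochondrial genes can also be assigned to near-identical pseudogene copies in nuclear chromosomes, so both kinds of count are uncertain where the copies match. Of 404 such copies 23 were tested. All together held 0.0848% to 0.11% of counts, of which MTATP6P1 on chromosome 1 held 79.2%, at 715.3 to 907.0 CPM. For TGFβ 0 of the 23 had an unadjusted p under 0.05, against 11250 of all 21567 genes. In the mean effects 0 of the 23 were called with TGFβ and 1 with Aramchol by both edgeR and DESeq2, where edgeR called 46.3% and 5.96% of all genes. The 1 was MTCO1P12, a copy of MT-CO1 on chromosome 1, with 23.1 ± 1.5 CPM in the 6 libraries with Aramchol and 26.7 ± 2.03 CPM in the 6 without (log2 fold change -0.21, edgeR adjusted p = 0.0369; 0.0549 with scaling by totals). Among the pairs of groups, TGFβ + Aramchol against Aramchol called 1 of the 23 copies, where 30.2% of all genes passed. It was MTCO1P28 on chromosome 16, named here after its values were seen, with 1, 1 and 4 counts with TGFβ + Aramchol and 7, 14 and 12 counts with Aramchol.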

How the data were processed

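The authors deposited 1 table of raw counts per gene for 12 libraries, with gene coordinates and lengths. Trizol was the extraction reagent and IDT's 2S Plus DNA kit made the libraries, per the labels' protocols. The submitters' processing notes name STAR 2.7.9a, featureCounts (Subread), DESeq2 and the GRCh38 build. For the annotation release, the strand setting and any poly(A) selection, nothing is given in the sources used here.

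Groups were taken from the sample titles. Counts were tested with edgeR 4.0.16 in R 4.3.3 (TMM factors 0.93 to 1.09, default expression filter, 1 mean per group over 12 libraries, quasi-likelihood test, Benjamini-Hochberg adjustment over 21567 genes, calls at 0.05). Of 62703 genes, 20616 had no count in any library. Levels are CPM with TMM scaling. Shares used the 37 genes' total as library size in the same test. Standard errors are the log2 fold change over the square root of F. Sums and shares were compared with 2-sided exact permutation tests over libraries, within the state of the other agent for mean effects. The common biological coefficient of variation was 8.90%, and a zero count allows up to 3 counts, or 0.041 to 0.0548 TMM-scaled CPM. The fit was tested on simulated data.

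None of the 12 pairs of libraries within a group agreed within sampling noise, with chi-square per degree of freedom from 3.99 to 35.7. The members, lists and tests were chosen with earlier results of these data known. All members are named at least once, and per library where called in any comparison or the highest or lowest of their class by mean CPM; of each nuclear list the 3 called genes with the smallest p in either mean effect are named, and always POLRMT, TFAM, LRPPRC and PPARGC1A. Alternatives were other scalings, filters, DESeq2 1.42.0, a replicate block, a term for the libraries numbered 3, and each library left out. Of the cholangiocyte markers, 1 is not reported here and was left out of the summed level.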

Additional observations from a re-analysis of the deposited data

How the results depend on the processing

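The calls of MT-TP with TGFβ (level and share), of MT-CO1 with Aramchol (level and share) and of the MT-TQ share kept their direction and their side of the threshold under every alternative, as did the call of MT-CO3 under 21 of 22, lost without Aramchol replicate 2 (adjusted p 0.0524). The level of MT-CO1 ranged from a log2 fold change of -0.32 to -0.26 and that of MT-TP from 0.28 to 0.46 over 22 alternatives. With scaling by totals, chosen after seeing the data, signs turned for TGFβ against vehicle in MT-TC (-0.15), MT-ND3 (-0.14), MT-ND5 (-0.0189) and MT-ND6 (-0.0048), and for the mean effect of TGFβ in MT-ATP8 (-0.0238), MT-ND5 (-0.0308) and MT-ND6 (-0.0387). There the median of all genes moved by -0.18 and -0.15.

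Counts of members called moved as follows. With TGFβ against vehicle (3), they were 6 with scaling by totals, 1 with upper quartile scaling and 6 with no filter on low counts. With Aramchol against vehicle (0), they were 1 with totals, 4 with no filter, 1 with DESeq2, 3 with a term for the libraries numbered 3 and 5 in numbers 1 and 2 alone. With TGFβ + Aramchol against TGFβ (2), they were 1 with RLE scaling, 6 with no filter, 6 with the term for number 3 and 8 in numbers 1 and 2 alone, and with TGFβ + Aramchol against Aramchol (1), 4 in numbers 1 and 2 alone. For the mean effect of TGFβ (4), they were 1 with upper quartile scaling, 11 with no filter, 8 with the term for number 3 and 8 in numbers 1 and 2 alone. For the mean effect of Aramchol (4), they were 7 with no filter, 8 with the term and 10 in numbers 1 and 2 alone. The interaction (0) called 1 with no filter. In shares, numbers 1 and 2 alone gave 4 for TGFβ (1), 14 for Aramchol (7) and 1 for the interaction (0), and the 13 protein genes as library size gave 4 for Aramchol. The 81 nuclear list genes called with TGFβ (56 higher, 25 lower) were 125 with totals (11 and 114), and the 6 called with Aramchol were 10 with the term for number 3 and 12 in numbers 1 and 2 alone. The causes were not tested. Calls over all genes also move with the setting. For TGFβ against vehicle 4070 of 21567 genes rose and 3908 fell on the TMM scale. With totals 2567 rose and 7571 fell, and with upper quartile scaling 3601 rose and 4553 fell. For the other settings, left-out libraries and the replicate block, the share over all genes is not given here. Moves in the counts of members are therefore not read as particular to the members.

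Leaving out each library in turn gave 1 to 4 members for TGFβ against vehicle (1 without TGFβ or vehicle replicate 1), 0 to 4 for Aramchol against vehicle (4 without vehicle replicate 3), 0 to 5 for TGFβ + Aramchol against TGFβ (0 without TGFβ + Aramchol replicates 1 or 2 or any TGFβ replicate, 1 without any Aramchol replicate or vehicle replicate 1, 5 without vehicle replicate 3) and 1 to 2 for TGFβ + Aramchol against Aramchol (2 without TGFβ + Aramchol replicate 2). It gave 1 to 8 for the mean effect of TGFβ (1 without Aramchol replicate 2, 8 without TGFβ + Aramchol replicate 2), 1 to 6 for that of Aramchol (1 without Aramchol replicate 2, 2 without TGFβ replicates 1 or 2) and 0 for the interaction. In shares it gave 1 to 4 for TGFβ (2 without TGFβ + Aramchol replicate 2, 3 without Aramchol replicate 3, 4 without vehicle replicate 3) and 2 to 8 for Aramchol (2 without TGFβ + Aramchol replicate 2, 3 without TGFβ replicate 1 or Aramchol replicate 2, 4 without TGFβ replicate 2 or vehicle replicates 1 or 2). The nuclear count for Aramchol was 1 to 9: 1 without TGFβ + Aramchol replicate 2, TGFβ replicate 3, Aramchol replicate 1 or vehicle replicate 2, 2 without TGFβ + Aramchol replicate 1, TGFβ replicates 1 or 2 or Aramchol replicate 2, and 3 without vehicle replicate 1.

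For single values the leave-one-out ranges, in percentage points, were -0.535 to -0.325 for the mitochondrial share with TGFβ (exact permutation p = 0.025 and 0.045 without TGFβ + Aramchol replicate 1 and vehicle replicate 3), 0.426 to 0.7001 for complex IV with TGFβ (p under the threshold without TGFβ + Aramchol replicate 2, Aramchol replicate 3 or vehicle replicate 1), 0.137 to 0.238 for complex V, 0.476 to 0.85 for protein genes and -0.838 to -0.47 for rRNA genes with TGFβ. With Aramchol they were 0.2996 to 0.673 for protein genes and -0.68 to -0.312 for rRNA genes, each past the threshold without TGFβ + Aramchol replicate 2. The MT-RNR2 to MT-RNR1 ratio ranged from -1.73 to -0.359, past it without vehicle replicate 2, and the MT-ND6 to MT-ND5 ratio from -0.014 to -0.00506, past it without Aramchol replicate 1. Numbers 1 and 2 alone allow an exact permutation p no lower than 0.0556, and all 8 differences named here reached it there: -0.70 for the mitochondrial share, 1.54 for complex I, 0.531 for complex III, -2.32 for complex IV and 0.748 for complex V with Aramchol, and 0.753 for protein genes, -0.741 for rRNA genes and 0.247 for complex V with TGFβ.

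Same-numbered libraries of different groups deviated together only weakly, with 18 correlations from 0.0074 to 0.221, of which 7 exceeded 0.1. The pairs numbered 3 all exceeded it, at 0.111 to 0.221, and libraries numbered 3 correlated negatively with every library of another number and group. In the library names, replicates 1 carry the numbers 1 to 4, replicates 2 the numbers 5 to 8 and replicates 3 the numbers 9 to 12. The labels do not say that same-numbered libraries share a culture or a day, so the numbers were not taken to pair the samples. Of the 12 libraries 9 correlated best with their own number, a hint from the data. With a replicate block, 5 members were called for TGFβ against vehicle, 3 for Aramchol against vehicle, 6 for TGFβ + Aramchol against TGFβ, 9 for the mean effect of TGFβ, 7 for that of Aramchol, and in shares 5 for TGFβ and 16 for Aramchol, with 11 nuclear list genes for Aramchol. Under the block the mitochondrial share with TGFβ (-0.418 points) had an exact permutation p = 0.0312 and complex V with TGFβ (0.194 points) p = 0.0625. Depth limits the tRNA genes most, since MT-TF, MT-TT and MT-TA had fewer than 20 counts in most libraries.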
